A study of Mus musculus with 12 samples.

Results

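The 10 genes described here make up the machinery that lets mouse liver respond to glucocorticoids (GCs) and that sets how much steroid reaches the response. They were taken by symbol, as the rows of the deposited count table whose Ensembl identifiers carry these names in the GENCODE mouse annotation. This lookup used no measured value, but the genes were chosen with earlier results of these data known. They are the receptor genes Nr3c1 and Nr3c2, the hormone-supply genes Hsd11b1 and Serpina6, the steroid-metabolizing genes Srd5a1, Akr1d1 and Akr1c6, and the cofactor genes Fkbp4, Ptges3 and Ncoa2. All 10 were found among the 55414 genes of the table, and all 10 were among the 13857 genes that passed edgeR's filter on low counts and were tested. The samples were livers of 12 female C57BL/6J mice, 8 to 12 weeks old, in 4 groups of 3 mice. A first intraperitoneal injection gave 0.9% NaCl or 300 mg/kg FeSO4, a dose that models acute iron overload, and after 6 h a second gave PBS or 10 mg/kg of the synthetic GC dexamethasone (DEX). Livers were taken 2 h after the second injection, 8 h after the first, and the groups are named NaCl/PBS, NaCl/DEX, FeSO4/PBS and FeSO4/DEX. No group is described as carrying a genetic change, and every liver was a whole-tissue sample, so that fewer cells of a type and less RNA per cell cannot be told apart.

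GCs act through the glucocorticoid receptor (GR), encoded by Nr3c1, a transcription factor that waits in the cytoplasm in a complex of HSP90, co-chaperones and immunophilins and moves to the nucleus once it binds hormone. Nr3c2 encodes the mineralocorticoid receptor, which also binds corticosterone. The amount of hormone a hepatocyte sees depends on corticosteroid-binding globulin (Serpina6), the main plasma carrier made by the liver. It also depends on the reductase encoded by Hsd11b1, which regenerates active GC from its inactive keto form inside the cell. Ring A reductases (Srd5a1, Akr1d1) inactivate GCs. Akr1c6 encodes a hydroxysteroid dehydrogenase of the aldo-keto reductase family, and whether it acts on GCs was not examined. Fkbp4 encodes the immunophilin that links the receptor complex to the transport machinery, Ptges3 encodes the co-chaperone p23, which stabilizes the hormone-binding form of the complex, and Ncoa2 encodes a coactivator that GR recruits at its target genes.

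The 250 bases upstream of the start of the canonical transcript were read for all 10 genes from GRCm39 and searched on both strands for response elements. For Nr3c1, Nr3c2 and Hsd11b1 this window lies inside the annotated gene, and starts of other transcripts were not searched. The windows of Hsd11b1, Serpina6 and Akr1c6 are shown, because these are the most abundant members per kilobase of exon and their windows hold no annotated exon. The Hsd11b1 window is chr1:192924938-192925187 on the minus strand, the Serpina6 window is chr12:103623753-103624002 on the minus strand, and the Akr1c6 window is chr13:4484055-4484304 on the plus strand. Capitals mark an AP-1 type element (TGANTCA) in Serpina6, 52 bases before the start, and a TATA element (TATAAA) in Akr1c6, 127 bases before the start.

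Hsd11b1: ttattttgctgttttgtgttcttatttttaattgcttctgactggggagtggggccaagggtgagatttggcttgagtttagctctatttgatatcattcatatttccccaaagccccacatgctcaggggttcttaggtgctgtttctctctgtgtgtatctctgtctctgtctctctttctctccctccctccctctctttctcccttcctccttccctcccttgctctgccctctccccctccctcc
Serpina6: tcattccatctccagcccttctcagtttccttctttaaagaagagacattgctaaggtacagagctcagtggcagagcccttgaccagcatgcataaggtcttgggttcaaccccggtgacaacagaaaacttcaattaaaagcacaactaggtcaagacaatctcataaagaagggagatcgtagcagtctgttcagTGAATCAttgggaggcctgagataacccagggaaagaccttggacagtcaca
Akr1c6: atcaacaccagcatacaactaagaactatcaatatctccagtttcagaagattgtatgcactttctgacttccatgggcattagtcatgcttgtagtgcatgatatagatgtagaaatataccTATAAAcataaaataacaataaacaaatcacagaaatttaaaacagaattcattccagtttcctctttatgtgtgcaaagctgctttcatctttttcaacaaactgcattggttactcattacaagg

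No letters matching the palindromic GC response element (ACANNNTGT with a G 2 bases before and a C 2 bases after it), or its core ACANNNTGT alone, were found in any of the 10 windows. The first was present in 0.275% and the second in 4.13% of the 13818 promoter windows of tested genes. The AP-1 type element of Serpina6 was present in 4.84% of these windows and the TATA element of Akr1c6 in 8.09%. The heat-shock type element GAANNTTC was found once among the members, 115 bases before the start of Fkbp4, and in 5.19% of all windows. GC boxes (GGGCGG, present in 46.1% of all windows) were found in Srd5a1, Fkbp4, Ptges3 and Ncoa2. These matches describe letters in a short window and do not show binding.

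Totals of reads counted on genes lay between 16335651 and 23827340 per library, and every member had at least 66 reads in every library, the fewest being for Nr3c2 with 66 to 520. Values are given as normalized read counts, which are counts scaled with edgeR's TMM factors, and as log2 fold changes (LFCs) with their standard error (SE). TMM factors lay between 1.14 and 1.16 in NaCl/PBS and between 0.90 and 0.95 in FeSO4/PBS mice, and scaling by library size alone moved the median LFC of all genes after FeSO4 from -0.02 to -0.34. FeSO4/PBS mouse 1 stood apart, with a chi-square per gene of 72.1 and 90.5 against the other FeSO4/PBS mice, which differed by 24.3 from each other. The summed level of 8 hepatocyte markers was 1922000 to 2284000 normalized counts in NaCl/PBS and 2364000 to 2705000 in FeSO4/PBS mice. Of the 8, 3 were called higher and 0 lower (median LFC 0.25). Most of the sum was Alb, with means of 1626400 and 1991800. The means of Apob and Cyp2e1 fell without a call, from 117940 to 96011 and from 105500 to 80962. In every group, 5 of 6 pancreatic acinar markers were at 0. The summed level of 8 Kupffer cell markers was 8652 to 9910 normalized counts in NaCl/PBS and 4675 to 5426 in FeSO4/PBS mice, where all 8 fell (median LFC -0.999), and that of 8 neutrophil markers was 49.1 to 188 and 640 to 812, with 4 of the 4 tested higher. Cholangiocyte markers summed to 533 to 683 normalized counts in NaCl/PBS and 1068 to 1376 in FeSO4/PBS mice. Of these 5 markers 2 were higher, Sox9 (LFC 3.26) and Spp1 (LFC 0.48), and 0 lower, while Krt19 and Krt7 had LFCs of -0.18 and -0.85 and did not pass.

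**Figure D1:**
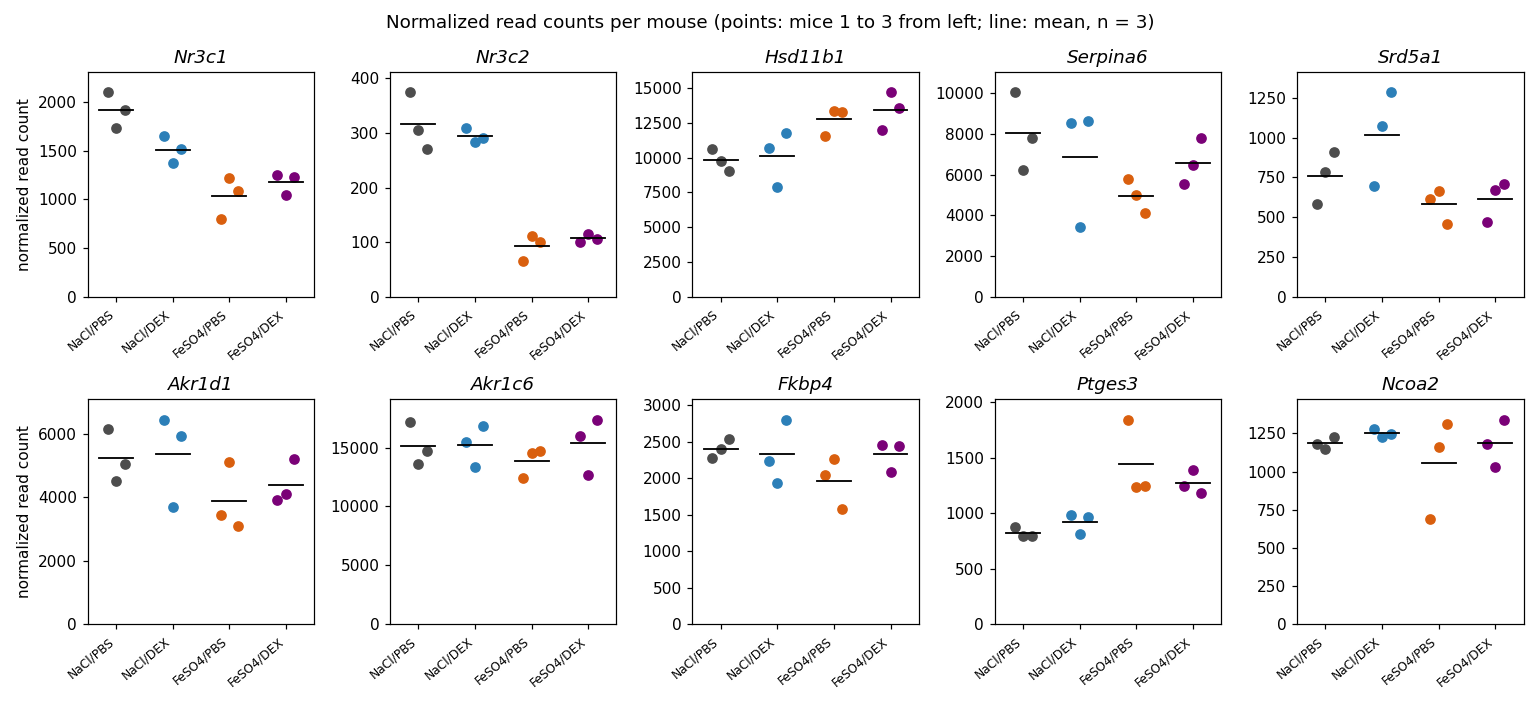
Normalized read counts (y axis, from 0) of the 10 genes in each of the 12 mice, by group on the x axis, with points for mice 1 to 3 from left to right and a line at the group mean. The FeSO4 groups of Nr3c2 lie below 116 and the NaCl groups above 270, while the groups of Akr1c6 overlap throughout.

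Before any comparison, the members spanned a wide range of levels. Exon length was the union over all annotated transcripts, so that levels compared between genes depend on the annotation. Per kilobase of exon, the NaCl/PBS livers held 4930 ± 601 normalized counts (SD, n = 3) of Akr1c6, 2489 ± 592 (SD, n = 3) of Serpina6, 1964 ± 160 (SD, n = 3) of Hsd11b1 and 1143 ± 183 (SD, n = 3) of Akr1d1. The cofactors Fkbp4 and Ptges3 followed, with 642 ± 36.4 and 368.5 ± 20.3 normalized counts per kilobase (SD, n = 3). Nr3c1 with 243 ± 23.5, Srd5a1 with 234 ± 50.5, Ncoa2 with 73.5 ± 2.37 and Nr3c2 with 37.0 ± 6.18 normalized counts per kilobase (SD, n = 3) were the lowest. Of the neighbours in this order, Serpina6 and Hsd11b1, and Nr3c1 and Srd5a1, did not differ beyond their spread. In the FeSO4/PBS livers Hsd11b1, with 2550 ± 203 normalized counts per kilobase (SD, n = 3), stood above Serpina6, with 1541 ± 256 (SD, n = 3).

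The first question was what FeSO4 alone did to these genes, and it was answered with the FeSO4/PBS and NaCl/PBS mice. Both receptor genes fell, to 0.540 times the control level for Nr3c1 and 0.293 times for Nr3c2, while the co-chaperone gene Ptges3 and the reductase gene Hsd11b1 rose and the other 6 members did not pass the test. Of 10 members, 2 were called higher and 2 lower at an edgeR FDR of 0.05 or less, while 27.2% of all tested genes were higher and 27.3% lower, so that the members' shares were not above the background. The groups did not overlap for 2 higher and 4 lower members, beside 29.0% and 31.0% of all tested genes. The median LFC of the members was -0.34, beside -0.02 for all tested genes.

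Nr3c1 (ENSMUSG00000024431) lies on chromosome 18 from 39543598 to 39652474 on the minus strand. It had 2097, 1727 and 1912 normalized counts after NaCl and PBS, against 796, 1218 and 1083 after FeSO4 and PBS. The groups did not overlap, and FeSO4/PBS mouse 1 was the lowest of all. The LFC was -0.89 (SE 0.15, edgeR FDR 0.000184), which is 0.540 times the control level. With any 1 of the 6 mice left out it stayed between -1.02 and -0.73 and past the threshold. The fall in Kupffer cell markers and the rise in neutrophil markers moved with the fall of Nr3c1, and their part in the result was not tested.

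Nr3c2 (ENSMUSG00000031618, chromosome 8 from 77625576 to 77971863) fell further. Its normalized counts were 374, 306 and 270.01 in the NaCl/PBS mice, against 66.5, 112 and 100.75 in the FeSO4/PBS mice, and the groups were far apart. The LFC of -1.77 (SE 0.19, edgeR FDR 3.36e-06) corresponds to 0.293 times the control level. Of the 10 members, Nr3c2 alone passed the FDR threshold with an LFC beyond 1 in size, as 27.2% of all tested genes did. Without FeSO4/PBS mouse 1 the LFC was -1.57 (edgeR FDR 4.01e-06).

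Hsd11b1 (ENSMUSG00000016194, chromosome 1 from 192903918 to 192946489) had 10624, 9769 and 9026 normalized counts in the NaCl/PBS mice. The FeSO4/PBS mice had 11564, 13360 and 13276, all above the controls. The LFC of 0.38 (SE 0.15, edgeR FDR 0.0411) lay close to the threshold. It kept its direction but lost the call when libraries were scaled by size alone (LFC 0.06, edgeR FDR 0.726), and without NaCl/PBS mouse 2 or 3 or FeSO4/PBS mouse 2 or 3 (edgeR FDR 0.0822, 0.136, 0.103 and 0.0923). With TMM scaling the rise is thus one relative to the other genes of the liver. The summed hepatocyte markers, mostly Alb, moved with it, and their part in the result was not tested. H6pd, which encodes the enzyme that supplies the reductase with NADPH, was also higher, with 5803 to 7761 normalized counts in NaCl/PBS and 8152 to 12306 in FeSO4/PBS mice (LFC 0.55, edgeR FDR 0.0129), but FeSO4/PBS mouse 1 was its highest mouse. Its call was lost without that mouse (LFC 0.38, edgeR FDR 0.0619), without NaCl/PBS mouse 3 (0.0653) and with library size alone (LFC 0.23, edgeR FDR 0.236). Hsd11b2, the dehydrogenase of the reverse reaction, had 0 to 2 reads in every library and was not tested.

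Serpina6 (ENSMUSG00000060807, chromosome 12 from 103611821 to 103623752) had 10035, 6242 and 7789 normalized counts among the NaCl/PBS mice, against 5782, 4986 and 4131 after FeSO4. The groups did not overlap, but the NaCl/PBS mice were widely spread. The LFC of -0.69 (SE 0.28, edgeR FDR 0.0523) missed the threshold. The choice of method decided the call, since DESeq2 gave an LFC of -0.67 with an adjusted p of 0.0343 and removal of NaCl/PBS mouse 2 or FeSO4/PBS mouse 1 gave an edgeR FDR of 0.0341 and 0.0452, while that of any other mouse gave 0.0857 to 0.199, the last without NaCl/PBS mouse 1 (LFC -0.50).

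None of the 3 steroid-metabolizing genes Srd5a1, Akr1d1 and Akr1c6 passed the test. Srd5a1 (ENSMUSG00000021594, chromosome 13 from 69721568 to 69759750) had 585, 782 and 910 normalized counts in controls and 616, 666 and 460 after FeSO4 (LFC -0.38, edgeR FDR 0.176). Akr1d1 (ENSMUSG00000038641, chromosome 6 from 37506822 to 37545751) had 6171, 4526 and 5063 normalized counts against 3462, 5116 and 3093 (LFC -0.43, edgeR FDR 0.111), and without FeSO4/PBS mouse 2, its highest treated mouse, the LFC was -0.68 with an edgeR FDR of 0.0199. Akr1c6 (ENSMUSG00000021210, chromosome 13 from 4484305 to 4507876) had 17185, 13564 and 14726 normalized counts against 12417, 14521 and 14734. Its LFC of -0.13 had a 95% interval from -0.44 to 0.19 (edgeR FDR 0.484). The groups of all 3 genes overlapped. Reads that match Akr1c6 and other Akr1c genes alike may be lost or misassigned. Srd5a1 shares 532 exonic bases with Nsun2 on the opposite strand, a gene with 1289 to 2457 reads per library. The strand setting of the counting is not given in the sources used here. How reads of this stretch were counted is thus not known.

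Among the cofactors, Ptges3 (ENSMUSG00000071072, chromosome 10 from 127894816 to 127913141) rose. It had 873, 798 and 792 normalized counts in controls and 1844, 1236 and 1243 after FeSO4, with mouse 1 the highest of the treated group. The LFC was 0.81 (SE 0.15, edgeR FDR 0.000412), and without FeSO4/PBS mouse 1 it was 0.60 (edgeR FDR 0.00047). Its processed copy Ptges3-ps had 12 to 37 reads per library, against 853 to 1829 for Ptges3.

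Fkbp4 (ENSMUSG00000030357, chromosome 6 from 128406698 to 128415665) had 2273, 2406 and 2546 normalized counts in controls and 2043, 2267 and 1581 after FeSO4. The groups touched without overlapping, and the LFC of -0.29 (SE 0.15, edgeR FDR 0.116) did not pass. Ncoa2 (ENSMUSG00000005886, chromosome 1 from 13209329 to 13444307) had 1183, 1148 and 1225 normalized counts, against 692 in FeSO4/PBS mouse 1 and 1163 and 1310 in the other two. Its LFC of -0.17 (edgeR FDR 0.441) rested on that mouse and was 0.06 without it (edgeR FDR 0.651).

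The same question was asked in the mice that also received DEX, by comparing FeSO4/DEX with NaCl/DEX. Nr3c2 fell, Hsd11b1 and Ptges3 rose, and Srd5a1 fell, which gives 2 members higher and 2 lower of 10, beside 22.4% and 20.9% of all tested genes. The groups did not overlap for 2 higher members and 2 lower ones, Nr3c1 and Nr3c2, beside 28.8% and 27.1%. The median LFC was -0.07 for the members and 0.01 for all tested genes. These values come from 6 mice that were not in the comparison without DEX.

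Nr3c2 had 309, 284 and 289.96 normalized counts in the NaCl/DEX mice and 100.5, 116 and 106 in the FeSO4/DEX mice, an LFC of -1.46 (SE 0.18, edgeR FDR 2.76e-05). Nr3c1 had 1646, 1368 and 1518 against 1247, 1049 and 1228. Its groups did not overlap, but the LFC of -0.36 (SE 0.15, edgeR FDR 0.0603) missed the threshold. It was called by DESeq2 (adjusted p 0.044), and in edgeR with only the libraries compared (FDR 0.0169), library size alone (0.011) and no filter (0.0319). With library size alone the LFC was -0.55, beside a median of -0.18 for all tested genes. Between mice without and with DEX, the FeSO4 effect on Nr3c1 differed by an LFC of 0.53 (SE 0.21, 95% interval 0.08 to 0.97), a difference that did not pass in edgeR after adjustment (FDR 0.162).

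Hsd11b1 had 10664, 7900 and 11786 normalized counts in the NaCl/DEX mice and 12011, 14681 and 13557 in the FeSO4/DEX mice. The groups did not overlap and the LFC was 0.41 (SE 0.15, edgeR FDR 0.036), but the call was lost without NaCl/DEX mouse 1 or 2 or FeSO4/DEX mouse 2 or 3 (edgeR FDR 0.0581 to 0.169) and with library size alone (0.234). Ptges3 had 980.03, 817 and 969 against 1242, 1388 and 1178, with all treated mice higher. The LFC of 0.46 (SE 0.15, edgeR FDR 0.0217) was not called without NaCl/DEX mouse 2 or FeSO4/DEX mouse 2 (edgeR FDR 0.0956 and 0.109) or with library size alone (0.132).

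Srd5a1, which encodes a ring A reductase, had 694.5, 1075 and 1285 normalized counts in the NaCl/DEX mice and 471, 674 and 709 in the FeSO4/DEX mice. The LFC was -0.72 (SE 0.23, edgeR FDR 0.0207), although the groups overlapped at NaCl/DEX mouse 1. Without NaCl/DEX mouse 2 or 3 or FeSO4/DEX mouse 1 the call was lost (edgeR FDR 0.0566, 0.105 and 0.09). Nsun2, with which Srd5a1 shares exonic bases, had LFCs of -0.03 in this comparison, 0.56 after FeSO4 alone and 0.40 after DEX in NaCl mice (edgeR FDR 0.866, 0.00163 and 0.0452), beside -0.72, -0.38 and 0.43 for Srd5a1, and its part in the Srd5a1 values was not tested. Serpina6, Akr1d1, Akr1c6, Fkbp4 and Ncoa2 had LFCs between -0.28 and 0.01, and none passed.

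**Figure D2:**
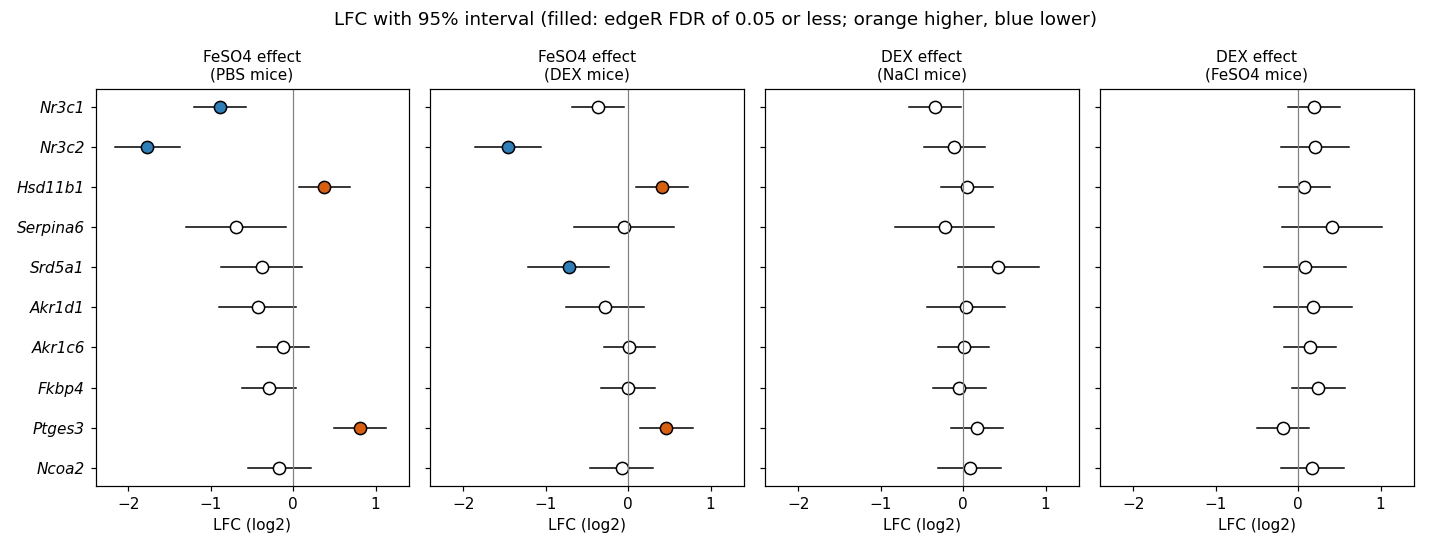
LFC of each member with its 95% interval (x axis, log2 scale) for FeSO4 in mice without and with DEX and for DEX in mice without and with FeSO4, with filled points where the edgeR FDR was 0.05 or less. Filled points stand only in the FeSO4 panels, with Nr3c2 at -1.77 and -1.46.

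The second question was what 2 h of DEX did to these genes in mice without FeSO4. As a check of the labels, Fkbp5, a GR target gene whose product is an immunophilin of the receptor complex, had 1341, 3654 and 1481 normalized counts without DEX and 9723, 10944 and 9940 in the NaCl/DEX mice (LFC 2.24, SE 0.29, edgeR FDR 0.000143). NaCl/PBS mouse 2 stood apart for Fkbp5, and without it the LFC was 2.87. None of the 10 members passed the test, beside 13.7% of all tested genes, and the median LFC was 0.02 for the members and -0.02 for all tested genes. This comparison shares the NaCl/PBS mice with the FeSO4 comparison without DEX and the NaCl/DEX mice with that under DEX.

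Of the members, Nr3c1 had the lowest FDR. The 3 NaCl/DEX mice, with 1368 to 1646 normalized counts, all lay below the NaCl/PBS mice, with 1727 to 2097, as 20.3% of all tested genes did. The LFC was -0.34 (SE 0.15, 95% interval -0.65 to -0.03, edgeR FDR 0.149). It was called when the 6 libraries compared were fitted alone (edgeR FDR 0.0494) and with library size alone (0.0436). Under the latter scaling the LFC was -0.49, beside a median of -0.18 for all tested genes. Nr3c2 had an LFC of -0.11 (95% interval -0.48 to 0.26, edgeR FDR 0.745).

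For Srd5a1 the NaCl/DEX mice had 694.5 to 1285 normalized counts against 585 to 910, an LFC of 0.43 with a wide 95% interval from -0.06 to 0.91 (edgeR FDR 0.258). Of the members, Serpina6 varied most within the NaCl/DEX group, with 3432 normalized counts in NaCl/DEX mouse 2 and 8532 and 8607 in the other two (LFC -0.23, edgeR FDR 0.662). Without that mouse the LFC was 0.10. Ncoa2 was the tightest of the members here, with 1148 to 1225 normalized counts in NaCl/PBS and 1230 to 1278 in NaCl/DEX mice, and its groups did not overlap, with DEX higher, as for 17.6% of all tested genes, but the LFC was 0.08 (edgeR FDR 0.832). Hsd11b1, Akr1d1, Akr1c6, Fkbp4 and Ptges3 had LFCs between -0.05 and 0.17, and each group pair overlapped.

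In FeSO4-treated mice, DEX again left the members without a call. With edgeR 0 of the 13857 genes tested (0%) passed the FDR threshold in this comparison, 900 genes (6.49%) had an unadjusted p under 0.05, and DESeq2 called 5 genes in each direction. With no filter on low counts edgeR called 99 genes higher and 71 lower, and without FeSO4/DEX mouse 1 it called 1. Every member's groups overlapped, whereas 9.30% of all tested genes had groups that did not. The member LFCs ran from -0.18 for Ptges3 to 0.41 for Serpina6, with a median of 0.18 beside 0.00 for all tested genes. Nr3c1 had an LFC of 0.19 (95% interval -0.13 to 0.50) and Hsd11b1 one of 0.08 (95% interval -0.24 to 0.39). For Serpina6, the FeSO4/DEX mice had 5515, 6447 and 7816 normalized counts beside 4131 to 5782 in the FeSO4/PBS mice, and the 95% interval of the LFC ran from -0.20 to 1.02.

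The difference between both DEX responses was also tested, as the response in FeSO4 mice minus that in NaCl mice. This is the same quantity as the difference of the FeSO4 effect between mice without and with DEX, given above for Nr3c1. The difference was called for none of the 10 members and for 6.18% of all tested genes. The values were 0.53 for Nr3c1 (edgeR FDR 0.162), 0.64 for Serpina6 (0.404), -0.35 for Ptges3 (0.377) and -0.34 for Srd5a1 (0.603). By contrast, Fkbp5 gave -2.43 (SE 0.40, edgeR FDR 0.00263), since the FeSO4/PBS mice had 3679 to 4175 and the FeSO4/DEX mice 3021 to 4004 normalized counts. Against the NaCl/PBS mice, FeSO4 alone raised Fkbp5 (LFC 0.89, edgeR FDR 0.0159). That call was lost without NaCl/PBS mouse 1 or 3 (edgeR FDR 0.0703 and 0.0752) and with library size alone (LFC 0.57, edgeR FDR 0.0944). The 95% intervals of the members were wide, for example from -0.22 to 1.49 for Serpina6 and from -0.41 to 0.47 for Hsd11b1.

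The genes that work with the receptor were described with lists that hold none of the 10 members. Of 19 genes of the HSP90 complex around GR, 18 were tested. After FeSO4 alone, 9 of them rose and 4 fell, and the median LFC was 0.23, beside 27.2% higher, 27.3% lower and a median of -0.02 for all tested genes. Without any 1 of the NaCl/PBS mice 2 fell, and without FeSO4/PBS mouse 3 it was 1. With library size alone these were 4 and 7 with a median of -0.09, so that the direction of the list depends on the scaling. Hsp90aa1, the stress-inducible HSP90, had 1017 to 1548 normalized counts in NaCl/PBS and 2931 to 3338 in FeSO4/PBS mice (LFC 1.19, edgeR FDR 6.18e-05). Hsp90ab1, the constitutive form, rose by an LFC of 0.40 (edgeR FDR 0.0158), and Hspa8, the constitutive HSP70, by 1.38 (edgeR FDR 1.95e-05). Hspa1b, an inducible HSP70 whose reads could also match Hspa1a, fell, with 44.9 to 62.6 normalized counts in controls and 3.05 to 16.1 after FeSO4 (LFC -2.31, edgeR FDR 0.000511).

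DEX in NaCl mice raised 5 and lowered 0 of these 18 chaperone genes (median LFC 0.29), beside 6.50% and 7.15% of all tested genes, with 3 raised when NaCl/PBS mouse 3, NaCl/DEX mouse 1 or NaCl/DEX mouse 3 was left out. Besides Fkbp5, Hspa1b rose by an LFC of 1.73 (edgeR FDR 0.00378) and the HSP40 gene Dnaja1 by 0.93 (edgeR FDR 0.000849). Hsp90aa1 and Hsp90ab1 had LFCs of 0.32 and 0.16 and did not pass (edgeR FDR 0.256 and 0.475). Under DEX, FeSO4 raised 3 and lowered 5 of the 18, beside 22.4% and 20.9% of all tested genes, and raised 1 without NaCl/DEX mouse 2 or FeSO4/DEX mouse 2. Those lowered included Hspa1b (LFC -4.30, edgeR FDR 3.97e-06), Fkbp5 (LFC -1.54, edgeR FDR 0.00062) and Dnajb1 (LFC -1.23, edgeR FDR 0.000119).

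Of 23 coactivators and corepressors of nuclear receptors, the group to which Ncoa2 belongs, 7 rose and 5 fell after FeSO4 alone (median LFC -0.04), beside 27.2% and 27.3% of all tested genes, and 6 and 12 with library size alone. Sra1, which gives rise to a steroid receptor RNA activator, had 736 to 817 normalized counts in NaCl/PBS and 2373 to 3408 in FeSO4/PBS mice (LFC 1.93, edgeR FDR 2.76e-06). The corepressor gene Nrip1 rose by 1.64 (edgeR FDR 2.22e-05) and the corepressor subunit gene Tbl1xr1 by 1.80 (edgeR FDR 1.34e-07). Nr0b2, which encodes the repressor SHP, fell by 2.21 on the log2 scale (edgeR FDR 0.000394). In NaCl mice, DEX raised 4 and lowered 1 of the 23, beside 6.50% and 7.15% of all tested genes. With 1 mouse left out 2 to 3 were raised, and Trim24, the gene lowered, kept its call only in the removal of NaCl/PBS mouse 2 (edgeR FDR up to 0.212 in the others). Of those raised, Tbl1xr1 also kept its call only without that mouse (edgeR FDR up to 0.193), while Ep300, a histone acetyltransferase gene, was at 611 to 703 normalized counts without and 1270 to 1476 with DEX (LFC 1.008, edgeR FDR 0.000579). The DEX response of Ep300 and of the Mediator gene Med1 differed between FeSO4 and NaCl mice (LFC -0.98 and -0.70, edgeR FDR 0.0167 for both).

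Steroid-metabolizing enzymes other than the members were described with 33 genes, of which 31 were tested. After FeSO4 alone 6 rose and 10 fell (median LFC -0.23), beside 27.2% and 27.3% of all tested genes, and 2 and 19 with library size alone. The number that fell was 6 without NaCl/PBS mouse 1 or 3 or FeSO4/PBS mouse 1, and 5 without FeSO4/PBS mouse 3. Akr1c14, a hydroxysteroid dehydrogenase of the same family as Akr1c6, fell, with 6560 to 7913 normalized counts in controls and 1623 to 3084 after FeSO4 (LFC -1.51, edgeR FDR 7.33e-05), unlike Akr1c6 itself, which did not pass. Hsd3b2 fell by 2.59 on the log2 scale (edgeR FDR 1.86e-05), and Hsd3b7, an enzyme of bile acid synthesis, rose by 1.31 (edgeR FDR 6.77e-05). Reads that match several paralogs of these families may be lost or misassigned.

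In NaCl mice, DEX raised 3 and lowered 1 of these 31 enzyme genes, beside 6.50% and 7.15% of all tested genes. Of those raised, Cbr1 (LFC 0.56, edgeR FDR 0.0394) lost its call in 5 of 6 removals of 1 mouse (edgeR FDR up to 0.191). Cyp3a11, which encodes a cytochrome P450 that hydroxylates steroids and drugs, had 53762 to 63679 normalized counts in NaCl/PBS and 109070 to 132900 in NaCl/DEX mice (LFC 1.05, edgeR FDR 0.00057). Por, the electron donor of these enzymes, rose by 0.80 (edgeR FDR 0.00108). In FeSO4 mice the DEX response of both was smaller than in NaCl mice (LFC of the difference -0.87 and -0.77, edgeR FDR 0.0365 and 0.0265). For Por, FeSO4 alone already gave 15527 to 20133 normalized counts (LFC 0.90, edgeR FDR 7.33e-05), beside 15904 to 17041 in the NaCl/DEX mice.

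**Figure D3:**
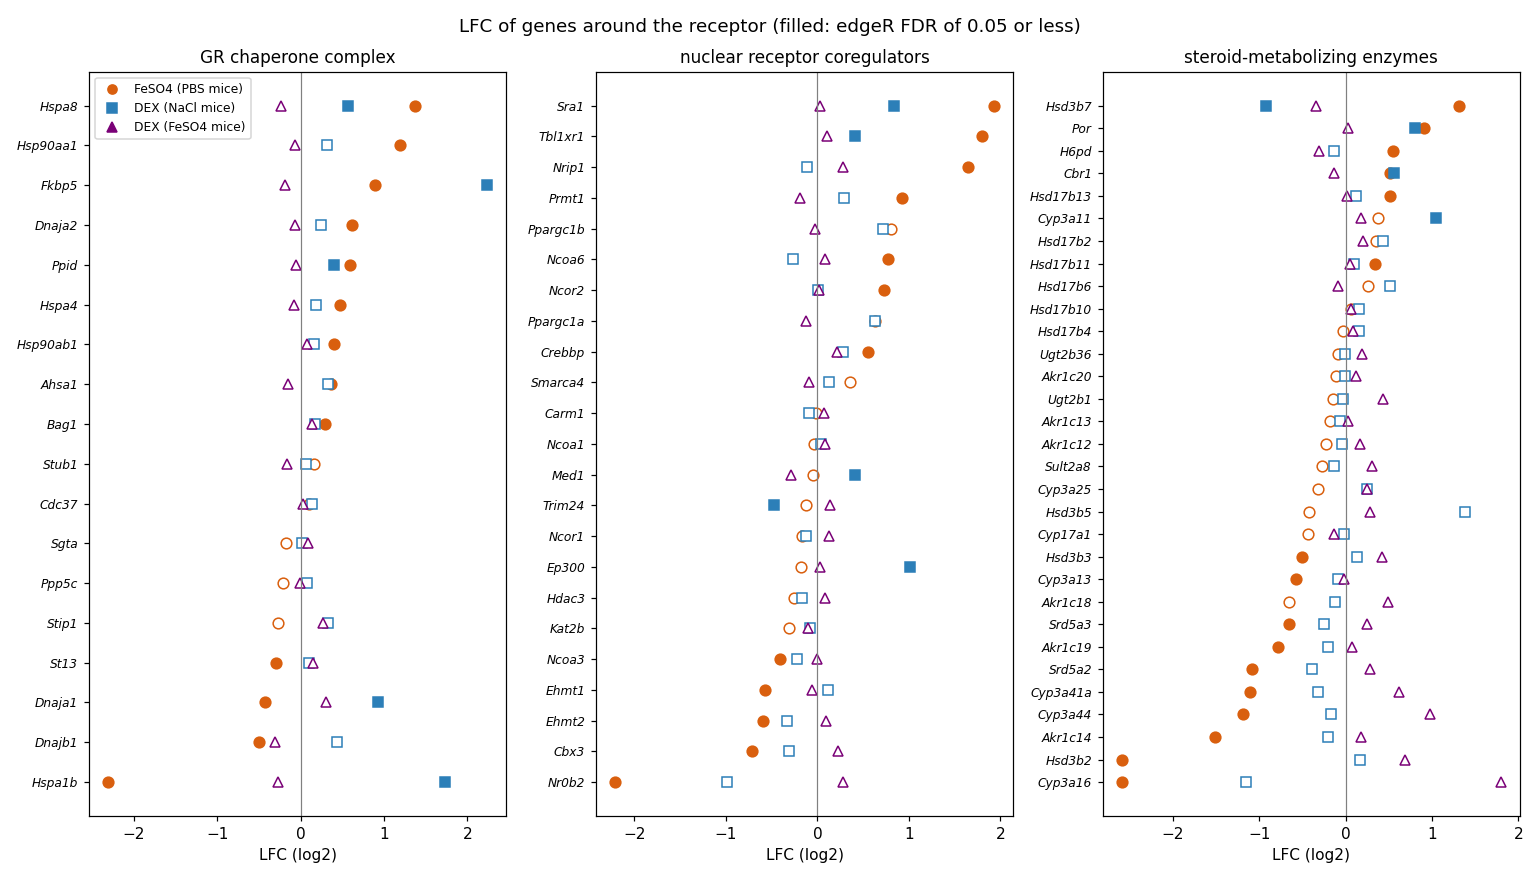
LFC (x axis, log2 scale) of the tested genes of the HSP90 complex, the nuclear receptor coregulators and the steroid-metabolizing enzymes, 1 gene per row, after FeSO4 in PBS mice (circles), DEX in NaCl mice (squares) and DEX in FeSO4 mice (triangles), filled where the edgeR FDR was 0.05 or less. Circles and squares are filled on both sides of 0, for example Hspa1b at -2.31 after FeSO4 and 1.73 after DEX, and no triangle is filled.

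Serpina6 lies in a cluster of serine protease inhibitor genes, and 14 neighbours of that cluster were tested. After FeSO4 alone 6 rose and 0 fell (median LFC 0.46), beside 27.2% and 27.3% of all tested genes, where Serpina6 had an LFC of -0.69. With library size alone 3 rose and 2 fell, and without FeSO4/PBS mouse 1 these were 4 and 2. Serpina3n, an acute-phase gene, had 12020 to 29837 normalized counts in NaCl/PBS and 33140 to 105460 in FeSO4/PBS mice (LFC 1.75, edgeR FDR 0.00154). Raw reads of Serpina3c numbered 0, 1 and 0 for NaCl/PBS, 7, 22 and 10 for NaCl/DEX and 115, 51 and 30 for FeSO4/PBS, too few in controls for a fold change. Of 5 other tested carriers of plasma hormones 2 rose and 0 fell after FeSO4 alone, beside 27.2% and 27.3% of all tested genes. Those that rose were transthyretin (Ttr, LFC 0.57, edgeR FDR 0.00176) and Rbp4 (LFC 0.33, edgeR FDR 0.0298). The call of Rbp4 was lost in 3 of 6 removals of 1 mouse (edgeR FDR up to 0.0942). Esr1, which encodes an estrogen receptor, had an LFC of -0.17 after FeSO4 alone (edgeR FDR 0.442). Under DEX, Esr1 was lower after FeSO4, with groups that did not overlap (LFC -0.56, edgeR FDR 0.019). That call was lost in 3 of 6 removals of 1 mouse (edgeR FDR up to 0.0634).

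Ratios of genes within a mouse do not depend on the scaling of libraries. The ratio of Nr3c1 to Nr3c2 per kilobase was 6.09, 6.13 and 7.69 among NaCl/PBS mice, against 13, 11.8 and 11.7 among FeSO4/PBS mice, and it was 5.57 ± 0.29 (SD, n = 3) in the NaCl/DEX and 12 ± 1.88 (SD, n = 3) in the FeSO4/DEX mice. Both FeSO4 groups lay above both NaCl groups, which shows an unequal change of the receptor genes and not which of them moved. The ratio of Hsd11b1 to Srd5a1 was 8.79 ± 2.74 without and 14.7 ± 3.56 with FeSO4 in the PBS mice, and 6.91 ± 2.73 without and 14.4 ± 2.08 with FeSO4 in the DEX mice (SD, n = 3). That of the immunophilin genes Fkbp5 to Fkbp4 was 0.304 ± 0.183, 1.53 ± 0.36, 0.707 ± 0.163 and 0.509 ± 0.041 (SD, n = 3) in NaCl/PBS, NaCl/DEX, FeSO4/PBS and FeSO4/DEX mice. For these ratios an exact permutation test, two-sided, of 3 against 3 mice cannot go below 0.1, and over the 20 comparisons of 5 ratios none had an adjusted p below 0.222. The ratios of Ptges3 to Hsp90aa1 and of Serpina6 to Nr3c1 overlapped between groups in every comparison.

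**Figure D4:**
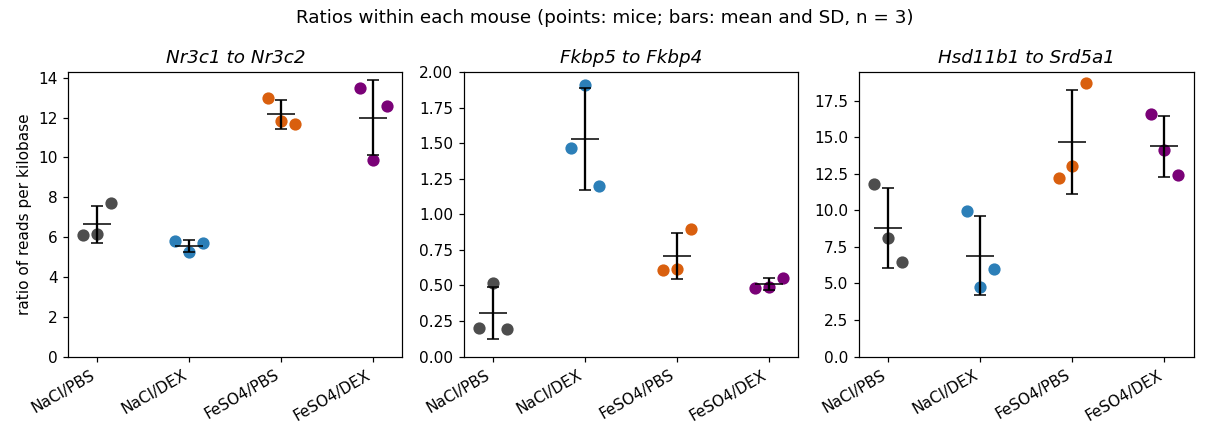
Ratio of reads per kilobase of exon within each mouse (y axis, from 0) for 3 gene pairs by group (x axis), with points for mice and bars for the mean and SD of 3 mice. The ratio of Nr3c1 to Nr3c2 is between 5.23 and 7.69 in the 6 NaCl mice and between 9.86 and 13.5 in the 6 FeSO4 mice.

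Across the 12 libraries, the genes whose normalized counts on the log2 scale followed Nr3c1 most closely, among 8958 genes with a mean of at least 100 normalized counts, included Gsap (Pearson r = 0.97), Pbx2 (0.97), Acbd5 (0.97) and Sesn3 (0.97). Within the members, Nr3c1 was nearest to Nr3c2 (r = 0.905) and farthest from Ptges3 (r = -0.909). The 12 points share their libraries and 4 treatment groups, so that these values describe a common pattern over groups.

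The falls of Nr3c1 and Nr3c2 and the rise of Ptges3 after FeSO4 alone passed the FDR threshold under every setting tried that kept this threshold alone, and the values of the 5 members nearest to or past it are drawn by setting. Srd5a1, Akr1d1, Akr1c6, Fkbp4 and Ncoa2 were called lower with library size alone, with LFCs between -0.75 and -0.44, beside a median of -0.34 for all tested genes under that scaling.

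**Figure D5:**
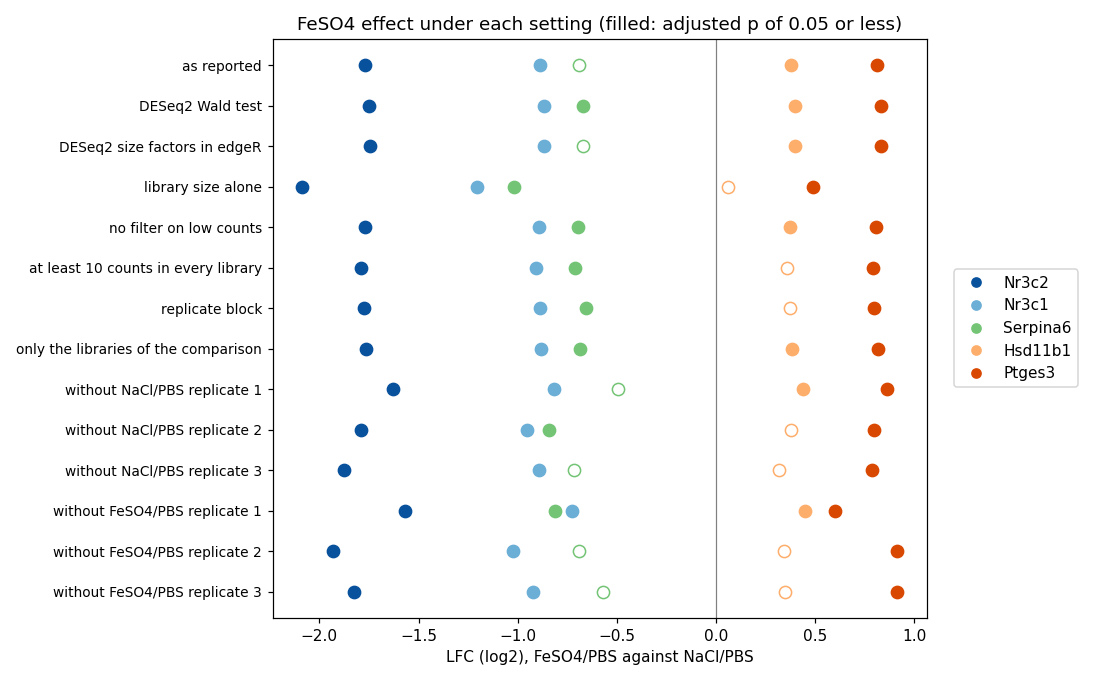
LFC of FeSO4/PBS against NaCl/PBS (x axis, log2 scale) for 5 members under each setting (rows), with filled points where the adjusted p was 0.05 or less. Nr3c2, Nr3c1 and Ptges3 are filled in every row, while Hsd11b1 and Serpina6 are filled in some rows only, and with library size alone Hsd11b1 is at 0.06.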

How the data were processed

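RNAseq was made from 12 mouse livers, 3 per group. According to the study's methods, the authors made stranded mRNA libraries for single-end sequencing and, after FastQC, used STAR 2.7.10b with mm39 for mapping and gene counting. The values they deposited are raw counts for 55414 Ensembl genes, without normalization. Which strand column was kept is not given in the sources used here.

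Symbols, positions and exon lengths came from GENCODE vM39 on GRCm39. With R 4.3.3 and edgeR 4.0.16, 13857 genes were fitted in 1 quasi-likelihood model of 4 group means after TMM scaling, with Benjamini-Hochberg adjustment over all of them. A gene was called at an FDR of 0.05 or less. The biological coefficient of variation was 0.169, and LFCs used a prior count of 0.125. The model was tested on simulated data in which few genes were changed, as many up as down. Such data cannot test the scaling where many genes change, as after FeSO4. Within groups, mice differed by far more than sampling noise (chi-square per gene 18.4 to 90.5). Members and lists were chosen with earlier results of these data known. Outside the members, the genes named were up to 3 higher and 3 lower per list and comparison, those with the largest LFC among called genes whose groups did not overlap, a selection of which is described, and Fkbp5, Hsp90aa1, Hsp90ab1, H6pd and Hsd11b2. Of the 5 genes nearest to Nr3c1 by correlation 4 were also named, and 2 genes that the rule gives are not reported here. Nsun2, which overlaps Srd5a1, Ptges3-ps, a copy of Ptges3, and Esr1 after FeSO4 alone were added once their values were known. Alternatives were each mouse left out in turn, a replicate block, DESeq2 1.42.0 or its size factors, library size alone, a fit without other groups, and no low-count filter or a stricter one (at least 10 counts in every library). Promoters were read with Python 3.11.15 and pysam 0.24.0.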

Additional observations from a re-analysis of the deposited data

How the results depend on the processing

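In mice without DEX, the count of members called higher after FeSO4 changed from 2 to 1 with library size alone, with at least 10 counts in every library and with the replicate number as a block, and the count called lower changed from 2 to 8 with library size alone, to 5 with no filter on low counts and to 3, by Serpina6, with DESeq2, at least 10 counts, the block and only the libraries compared. With an LFC beyond 1 in size, 0 were higher and 1 lower. Under DEX, the 2 members higher after FeSO4 became 0 with library size alone, 1 with the block, 1 with only the libraries compared and 0 with an LFC beyond 1, which left 1 lower, and the 2 lower became 3, by Nr3c1, with DESeq2, library size alone, no filter and only the libraries compared. For DEX in NaCl mice, 1 member was lower with library size alone, 1 was lower with only the libraries compared and 1 was higher with no filter. For the difference of DEX responses, 1 was higher with no filter. Fewer called genes follow from the LFC minimum by construction, and the cause of the other changes was not tested. With 1 mouse left out, members higher after FeSO4 numbered 1 to 2 without DEX and 0 to 2 under DEX, and members lower numbered 2 to 3 and 1 to 2.

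Values of members that changed sign were small. With library size alone, DEX in NaCl mice gave -0.11 for Hsd11b1, -0.13 for Akr1d1, -0.15 for Akr1c6 and -0.076 for Ncoa2, and Akr1c6 gave -0.0057 with at least 10 counts. For FeSO4 under DEX, Akr1c6 gave -0.0071 with DESeq2, -0.0071 with its size factors, -0.18 with library size alone, -0.0096 with no filter and -0.0059 with only the libraries compared, and the replicate block gave 0.021 for Serpina6 and 0.0026 for Fkbp4. For the difference of DEX responses, Hsd11b1 gave -0.011 with DESeq2 and with its size factors.

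With 1 mouse left out, LFCs ran across 0 for FeSO4 without DEX in Ncoa2 (-0.35 to 0.065). For DEX in NaCl mice the ranges were -0.20 to 0.042 for Nr3c2, -0.079 to 0.20 for Hsd11b1, -0.42 to 0.10 for Serpina6, -0.12 to 0.24 for Akr1d1, -0.072 to 0.12 for Akr1c6 and -0.20 to 0.071 for Fkbp4. For DEX in FeSO4 mice they were -0.015 to 0.37 for Nr3c2, -0.012 to 0.15 for Hsd11b1, -0.063 to 0.25 for Srd5a1, -0.29 to 0.012 for Ptges3 and -0.081 to 0.35 for Ncoa2. For FeSO4 under DEX they were -0.38 to 0.14 for Serpina6, -0.12 to 0.10 for Akr1c6 and -0.12 to 0.15 for Fkbp4. For the difference of DEX responses they were -0.12 to 0.15 for Hsd11b1, -0.062 to 0.39 for Akr1d1 and -0.18 to 0.26 for Ncoa2.

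Over all groups, deviations of same-numbered mice correlated at -0.09 to 0.13 and those of others at -0.15 to 0.11, which shows no general pairing by number. Between NaCl/DEX and NaCl/PBS mice, however, same-numbered mice had r of 0.13, 0.11 and 0.05, above all others (-0.15 to 0.03). Between FeSO4/DEX and FeSO4/PBS mice, same-numbered mice had r of -0.07, -0.07 and -0.03. A link by number within single comparisons was not tested. The block took the call of Hsd11b1 after FeSO4 in both comparisons (edgeR FDR 0.0624 and 0.0531) and gave one to Serpina6 without DEX (0.0477), and it changed no other member's call. Precision is limited by 3 mice per group and, for Nr3c2 with 66 to 520 reads per library, also by depth.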
